A study of Mus musculus with 768 samples.

Results

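Kit, Elf5, Ehf, Aldh1a3, Itga2, Itgb3, Cd14 and Tspan8 are 8 genes that mark luminal progenitor cells of the mammary gland, and they were followed here by name among the 23997 gene names of the count tables. All 8 were found in both tables. The proteins used to sort or describe these cells include the receptor tyrosine kinase Kit, the integrin subunits Itga2 and Itgb3, the lipopolysaccharide co-receptor Cd14 and the tetraspanin Tspan8. Elf5 and Ehf are epithelial Ets transcription factors, and Aldh1a3 is an enzyme that makes retinoic acid.

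The cells came from inguinal mammary glands, and each sorted cell was made into a Smart-Seq2 library, which covers whole transcripts and has no molecular identifiers. Both groups were C57BL/6 mice carrying WAP-CRE, a Cre recombinase driven by the promoter of a milk protein gene. The control group had R26-tdTomato, a red reporter at the Rosa26 locus, and the other group had R26-N1ICD-EGFP, which joins the active intracellular part of Notch1 to a green reporter. The labels call the lines "td homo" and "nicd homo" and say that cells positive for GFP and tdTomato were sorted, and the series text places sampling after a lactation of 3 to 4 months without naming the age of the mice. There was 1 plate of 384 wells per genotype and no animal is named, so genotype, animal and plate cannot be told apart. No test between genotypes was possible, and all values below describe these plates.

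In the luminal layer, progenitors of the alveolar lineage carry Kit and Elf5 and lack hormone receptors, whereas hormone-sensing cells carry Prlr, Pgr, Esr1 and Foxa1. Elf5 acts downstream of the prolactin receptor and is needed for alveolar cells to form and make milk proteins such as the caseins. Notch signalling is known in this tissue for favouring luminal over basal fate.

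Of the 384 wells of each plate, 86.98% of the control (median 241888 reads, range 50048 to 608476) and 73.7% of the N1ICD-EGFP plate (median 348469, range 51736 to 615664) held at least 50000 reads and 1000 genes and were kept. Krt8, a luminal keratin, had at least 1 read in 93.7% of kept control cells and 80.9% of kept N1ICD-EGFP cells, and these are called Krt8-positive. Reads of 2 or more of Prlr, Pgr, Esr1 and Foxa1 marked 25.6% of Krt8-positive control cells (80 cells) but 3.93% of Krt8-positive N1ICD-EGFP cells (9 cells) as hormone-receptor-read. Cells with no Krt8 read and reads of 2 or more leukocyte markers numbered 15 and 42. Krt8-positive cells had a median of 3649 genes in the control plate, against 2510 with N1ICD-EGFP.

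Levels are CPM, the summed reads of a gene scaled to a common total, with exact Poisson 95% intervals. Shares are cells with a read after each cell was thinned to 50000 reads, with Clopper-Pearson 95% intervals. Both intervals cover counting error only and not the spread between cells or animals. A gene was called higher or lower when its CPM differed by at least 1.5 times and reached 5 CPM in either set.

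In Krt8-positive cells, 1 of the 8 genes was called higher in the N1ICD-EGFP plate and 3 were called lower. Over all 11664 gene names tested, 20.9% were called higher and 19.8% lower, so a difference of this size was common between the plates. The median log2 ratio was -0.25 over the 8 genes and 0.05 over all names.

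Kit, the receptor for stem cell factor, was the gene called higher. Its level was 491.6 CPM (487 to 497) in control cells and 770.5 CPM (764 to 777) in N1ICD-EGFP cells, a fold of 1.57 and a log2 ratio of 0.65. The share of cells with a Kit read was 67.7% (62.2 to 72.9) against 77.7% (71.8 to 82.95), and unthinned 70.9% against 82.5%. Among cells with a read, the median Kit level was 652 CPM in control cells and 618 CPM in N1ICD-EGFP cells. The share of Krt8-positive cells with a Kit read was thus higher in the N1ICD-EGFP plate. The median level in cells with a read was close, but a median does not show how much the highest cells add to a sum. With the mean of per-cell CPM in place of the sum, the log2 ratio of Kit was 0.45. The parts of share and of level per cell in the summed difference were not separated.

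Leaving out the hormone-receptor-read cells ended the call on Kit. In the 74.4% of control and 96.1% of N1ICD-EGFP cells that remained, Kit stood at 685 and 799 CPM, a log2 ratio of 0.22. The order of the shares turned as well: a thinned Kit read was slightly less frequent in the remaining N1ICD-EGFP cells than in the remaining control cells. In hormone-receptor-read cells of the control plate, Kit was at 78.4 CPM and read in 22.5% of cells. Of these 80 cells, 19 had at least 1000 CPM of the 5 casein genes summed. Kit in the other 61 is given below. Kit is also a mast cell gene. Summed mast cell markers were 1.09 CPM in Krt8-positive control cells and 8.79 CPM in those of the N1ICD-EGFP plate, where Cma1, Fcer1a and Ms4a2 had no read.

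Elf5, the Ets factor of alveolar cells, was at 179.9 CPM (176.9 to 182.9) in control cells and 150.8 CPM (148.1 to 153.5) in N1ICD-EGFP cells, a log2 ratio of -0.25. Its share was 68.1% (62.6 to 73.2) of control cells and 58.5% (51.8 to 64.97) of N1ICD-EGFP cells. Ehf, whose gene neighbours Elf5 on chromosome 2, was at 641.8 CPM (636 to 647) and 542.9 CPM (538 to 548), a log2 ratio of -0.24, with shares of 70.9% and 64.6%. Neither Ets gene passed 1.5 times.

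Aldh1a3 was called lower, from 666 CPM (660 to 672) in control cells to 342.4 CPM (338.4 to 346.5) in N1ICD-EGFP cells, a log2 ratio of -0.96. Reads were found in 58.5% (52.8 to 63.98) of control cells and 39.3% (32.9 to 45.95) of N1ICD-EGFP cells. The highest cell reached 5072 CPM in the control plate and 4509 CPM with N1ICD-EGFP, so single cells with abundant Aldh1a3 were present in both. Its log2 ratio was -1.35 without hormone-receptor-read cells.

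Itga2, the collagen-binding integrin alpha 2 subunit, was called lower, at 29.1 CPM (27.9 to 30.3) and 5.96 CPM (5.44 to 6.53), a log2 ratio of -2.11. Its share was 14.1% (10.4 to 18.4) of control cells and 6.11% (3.38 to 10.04) of N1ICD-EGFP cells. Itgb3, the integrin beta 3 subunit known as CD61, was called lower too, at 14.4 CPM (13.6 to 15.3) and 1.20 CPM (0.973 to 1.47), a log2 ratio of -2.81. Few cells carried these reads: Itgb3 was read in 6.39% (3.95 to 9.70) and 0.873% (0.106 to 3.12) of cells. The 5 highest cells held 37.2% of the Itga2 reads of control cells and 70.3% of those of N1ICD-EGFP cells. For Itgb3 they held 60.8% and 100%, so these sums rest on a handful of cells.

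Cd14 was at 623.1 CPM (618 to 629) in control cells and 749.6 CPM (744 to 756) in N1ICD-EGFP cells, a log2 ratio of 0.27. Tspan8 was at 283.1 CPM (279.3 to 286.8) and 343.04 CPM (338.97 to 347.15), a log2 ratio of 0.28. Shares of both lay lower in the N1ICD-EGFP plate, 70.7% against 77.96% for Cd14 and 51.97% against 55.9% for Tspan8. Level and share thus moved in opposite directions over all Krt8-positive cells, and neither gene passed 1.5 times. Without hormone-receptor-read cells, level and share of both genes lay lower in the N1ICD-EGFP plate, with log2 ratios of -0.089 for Cd14 and -0.083 for Tspan8. Cd14 is also a monocyte and macrophage gene, and summed macrophage markers in Krt8-positive cells were 167.1 CPM in control and 492 CPM in N1ICD-EGFP cells, with 5 of 7 tested markers called higher and none at 0. The part of such reads in the Cd14 sum was not tested.

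**Figure D1:**
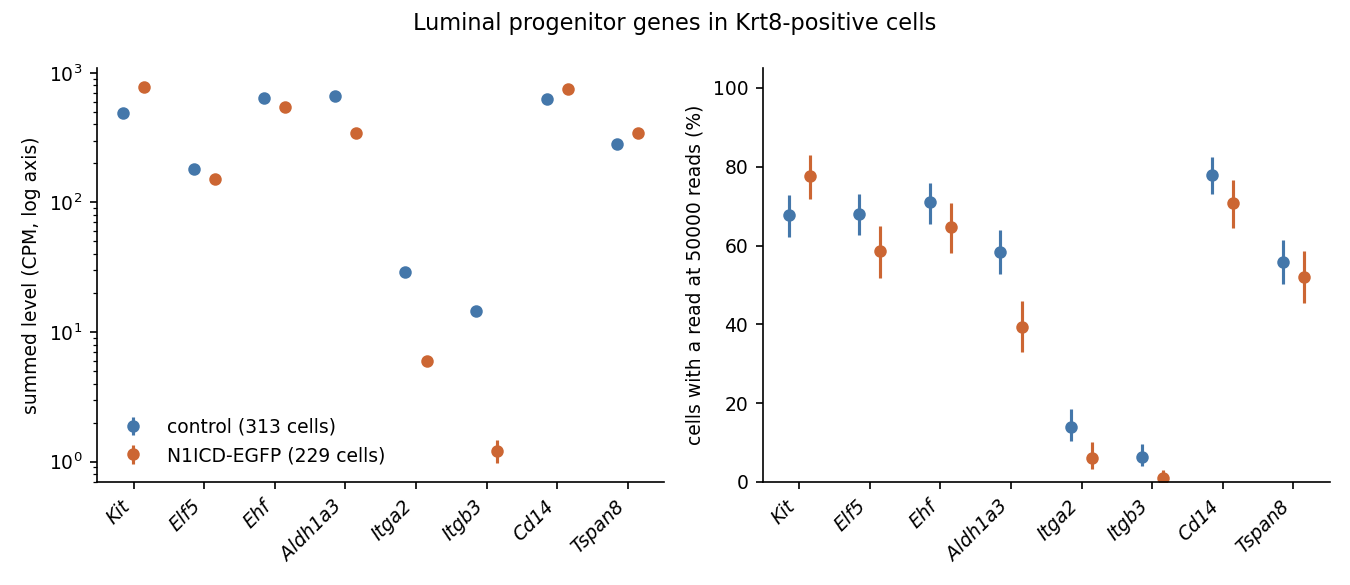
Summed level in CPM on a log axis (left) and percent of cells with a read after thinning to 50000 reads (right) of the 8 genes in the Krt8-positive cells of each plate. Bars are 95% counting intervals, which are narrower than the symbols for most levels. Kit lies higher in the N1ICD-EGFP plate in both panels, and Aldh1a3, Itga2 and Itgb3 lie lower in both.

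The set of cells compared changed which genes were called. Without hormone-receptor-read cells, none of the 8 genes was called higher (21.6% of 11591 names were) and 4 were called lower (19% were): Ehf at 863 and 564 CPM, Aldh1a3, Itga2 and Itgb3. Elf5 there had a fold of 1.49, just inside the threshold, at 235.02 and 157.4 CPM. Over all kept cells, none was called higher (background 23.4%), and Aldh1a3 and Itga2 were called lower (background 17.3%). Itgb3 differed little there, at 15.3 and 13.5 CPM. Leukocyte-gated cells held Itgb3 at 46.3 CPM in the 15 control cells and 81.7 CPM in the 42 N1ICD-EGFP cells.

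Leukocyte-gated cells also give levels of the epithelial genes in cells without a Krt8 read. Whether such reads are stray was not tested. In the 42 such cells of the N1ICD-EGFP plate, Kit was at 0.874 CPM, Elf5 at 0.134 CPM, Ehf at 0.269 CPM and Tspan8 at 0.538 CPM, with thinned shares of at most 2.38%. Their median depth was 356180 reads, beside 351920 in Krt8-positive cells of that plate. Itga2 was at 0, and a count of 0 in 42 cells allows a share of up to 8.41% (Clopper-Pearson). In the 15 control leukocyte-gated cells, of median depth 171482 reads against 247958 in Krt8-positive cells, the Kit share was 20% and the Ehf share 13.3%. Itga2 was read in 13.3% and Itgb3 in 20% of the 15 control leukocyte-gated cells. Itgb3 levels there were above that of Krt8-positive cells, so leukocyte-gated cells give no background for Itgb3.

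**Figure D2:**
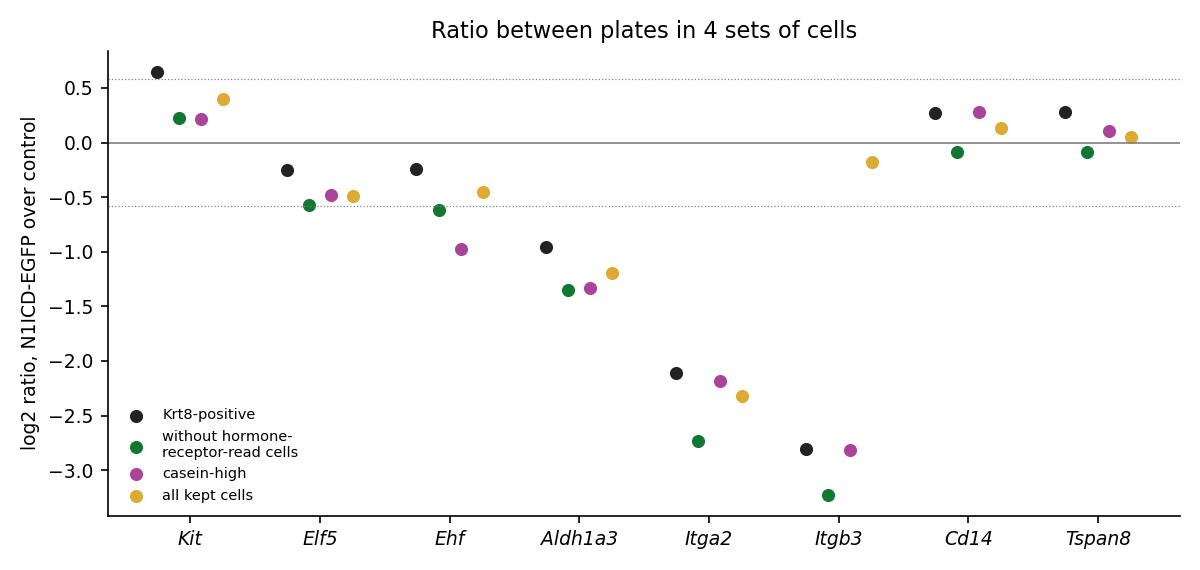
Log2 ratio of N1ICD-EGFP over control for each gene in 4 sets of cells. Dotted lines mark 1.5 times in each direction. Kit passes the upper line in all Krt8-positive cells and in no other set shown, while Aldh1a3 and Itga2 lie under the lower line in each set.

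Promoter windows of 4 of the 8 genes were listed in the RefSeq table for GRCm38.p6, running from 250 bases before to 50 bases after a transcript start. Kit, Elf5 and Itga2 are shown because their levels were called higher, not called, and called lower in Krt8-positive cells. Capitals mark a match, on either strand, to the Ets-type letters AGGAAG, the Rbpj-type letters TGGGAA or the Stat-type letters TTCNNNGAA.
Kit, chr5:75574737-75575036, plus strand: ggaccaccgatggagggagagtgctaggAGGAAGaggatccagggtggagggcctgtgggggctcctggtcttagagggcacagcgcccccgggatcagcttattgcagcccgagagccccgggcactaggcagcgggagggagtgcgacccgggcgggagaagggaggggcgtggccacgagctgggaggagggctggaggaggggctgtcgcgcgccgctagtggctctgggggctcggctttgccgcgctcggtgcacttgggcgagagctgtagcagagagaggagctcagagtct
Elf5, chr2:103411848-103412147, plus strand: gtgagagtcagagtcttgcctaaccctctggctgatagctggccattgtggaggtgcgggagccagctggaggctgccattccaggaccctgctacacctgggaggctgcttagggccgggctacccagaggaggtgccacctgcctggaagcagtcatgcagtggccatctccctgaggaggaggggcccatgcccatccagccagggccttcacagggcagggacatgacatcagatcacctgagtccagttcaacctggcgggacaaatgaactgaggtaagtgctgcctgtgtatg
Itga2, chr13:114932051-114932350, minus strand: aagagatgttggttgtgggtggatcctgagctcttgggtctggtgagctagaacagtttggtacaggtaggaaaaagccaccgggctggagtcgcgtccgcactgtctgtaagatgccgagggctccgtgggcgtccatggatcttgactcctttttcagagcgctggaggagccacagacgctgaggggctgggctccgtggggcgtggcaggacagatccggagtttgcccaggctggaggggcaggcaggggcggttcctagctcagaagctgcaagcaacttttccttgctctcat

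The Kit window held 1 match to AGGAAG, and no match to the other letters. None of the 3 motifs was found in the Elf5 window shown, in a window of a later Elf5 start at chr2:103423818-103424117, or in those of Itga2 and Tspan8. AGGAAG occurs in 35.4% of the 32851 windows of the table, TGGGAA in 25.6% and TTCNNNGAA in 8.30%. AGGAAG and TGGGAA share the letters GGAA but cannot cover the same bases in full. By the RefSeq annotation the genes other than Cd14 lie at chr5:75574987-75656722 (Kit), chr2:103412098-103450989 (Elf5), chr2:103263431-103303275 (Ehf), chr7:66390892-66427477 (Aldh1a3), chr13:114833081-114932100 (Itga2), chr11:104608000-104670476 (Itgb3) and chr10:115816817-115849893 (Tspan8). All are protein-coding.

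The Krt8-positive cells of each plate were then divided by casein. Casein-high cells had at least 1000 CPM of the 5 casein genes summed, a class that held 74.8% of Krt8-positive control and 53.3% of Krt8-positive N1ICD-EGFP cells. Cells between 500 and 2000 CPM, near this limit, numbered 7 and 19.

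In the control plate all 8 genes were called higher in casein-high cells, where 24% of 11782 names were, and none lower, where 31.2% were. Kit was at 719 CPM in casein-high and 13.96 CPM in casein-low cells, a log2 ratio of 5.59. Aldh1a3 was at 979 and 7.94 CPM (6.78), Cd14 at 901 and 38.6 CPM (4.51), Ehf at 928 and 40.7 CPM (4.48), Elf5 at 257.5 and 16.8 CPM (3.86), and Itga2 at 41.9 and 2.21 CPM (3.74). Tspan8 showed the smallest difference, at 381.98 and 75.1 CPM (2.33). Itgb3 had 1115 reads in casein-high and 0 in casein-low cells, at least 176.8-fold higher with a floor of 3 counts over the group. These sizes depended on where casein was divided. With casein-high defined by a Csn2 read, the control log2 ratios were 1.27 for Kit, 1.54 for Aldh1a3, 1.47 for Ehf, 1.57 for Elf5 and 1.81 for Cd14, and with a limit of 100 CPM that of Kit was 8.75. Of the control cells with a thinned Kit read, 97.2% were casein-high, and of the cells without one 27.7% were.

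Of the 79 casein-low control cells, 61 were hormone-receptor-read, and in those Kit was at 1.05 CPM and read in 3.28% of cells. The other 18 included 7 cells with basal markers and 6 with a Ptprc read. Leaving out the hormone-receptor-read cells, Tspan8 differed between casein-high and casein-low control cells by a log2 ratio of 0.40, and its call ended.

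In the N1ICD-EGFP plate the same division gave a different picture. Of 7 genes at 5 CPM or more, 4 were called higher in casein-high cells, with 19.2% of 11585 names called, and none lower, with 29.5%. Cd14 was at 1097 CPM in casein-high and 324.4 CPM in casein-low cells (log2 ratio 1.76), Itga2 at 8.43 and 2.96 CPM (1.25), Elf5 at 184.4 and 109.7 CPM (0.74), and Tspan8 at 411 and 260 CPM (0.66). Kit was at 833 and 694 CPM (0.26), and Aldh1a3 at 387 and 287.8 CPM (0.43). Ehf lay the other way, at 473 and 629 CPM (-0.41). None of these last 3 genes passed 1.5 times, and the direction of each turned under another definition of casein-high. Of the cells with a Kit read, 57.3% were casein-high, against 39.2% of those without. Kit and Ehf reads were thus common in cells with little casein in this plate.

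**Figure D3:**
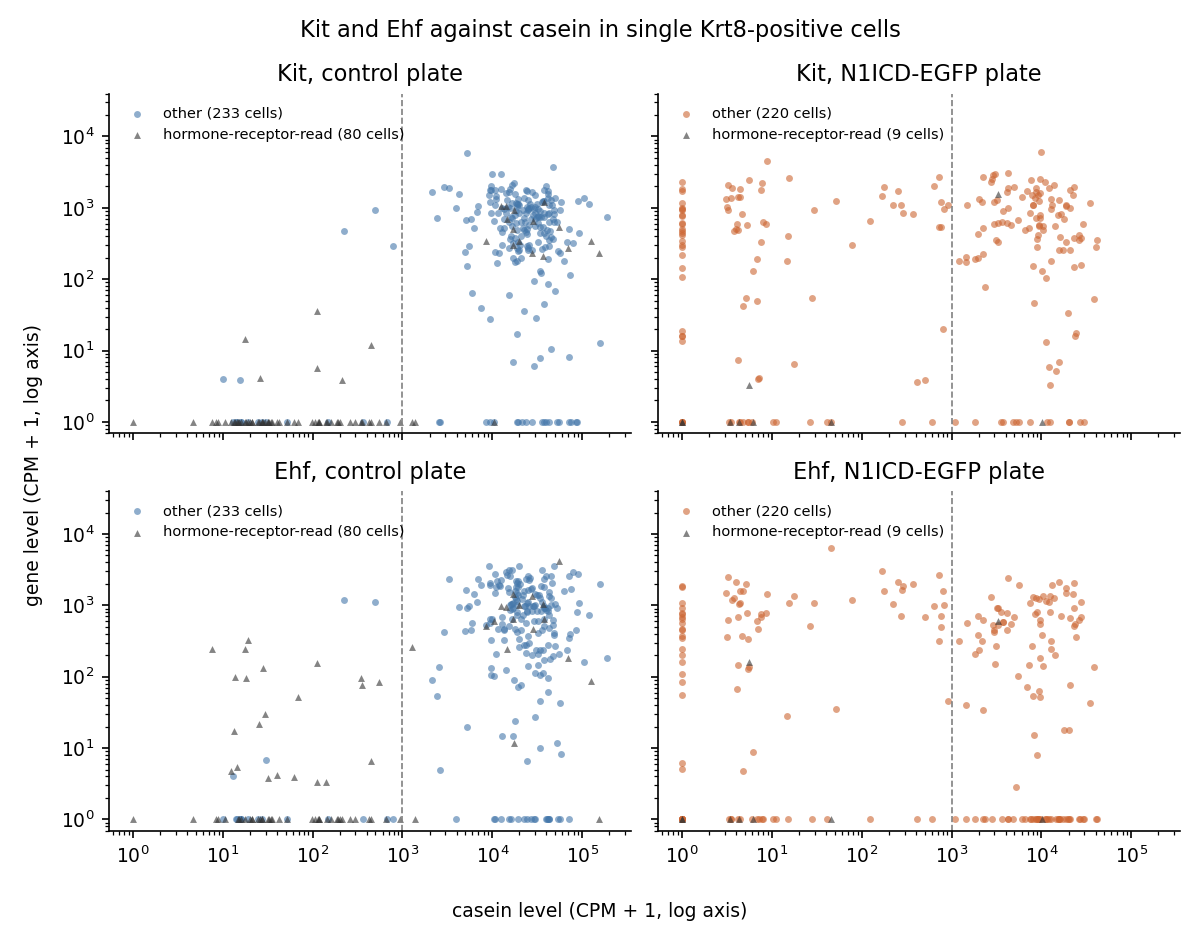
Level of Kit and Ehf against the summed casein level in single Krt8-positive cells of each plate, both as CPM + 1 on log axes. The dashed line marks 1000 CPM and triangles are hormone-receptor-read cells. In the control plate cells with Kit lie almost all to the right of the line, and in the N1ICD-EGFP plate they lie on both sides.

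Division into 5 ranges of casein, was chosen after the values had been seen. Among cells under 10 CPM of casein, Kit was read in 53 of 74 N1ICD-EGFP cells (71.6%, 59.9 to 81.5) and in 0 of 7 control cells, which allows a share of up to 40.96%. Between 100 and 1000 CPM it was read in 16 of 20 (80%) and in 4 of 29 cells (13.8%). Of the 29 control cells, 23 were hormone-receptor-read, and in the other 6 Kit was read in 3 (50%, 11.8 to 88.2). Under 10 CPM, 1 of the 7 control cells was not hormone-receptor-read, and it had no thinned Kit read. Between 10 and 100 CPM, Kit was read in 1 of 11 such control cells (9.09%) and 7 of 12 such N1ICD-EGFP cells (58.3%). At 10000 CPM or more the shares were 79.6% of 54 N1ICD-EGFP cells and 89.1% of the control cells. Ehf followed this shape with shares of 62.2% and 14.3% under 10 CPM and of 57.4% and 87.6% at 10000 CPM or more. Aldh1a3 was read in 28.4% of N1ICD-EGFP cells under 10 CPM and 31.5% at 10000 CPM or more, with 70% between 100 and 1000 CPM. Cd14 was read in 50% of N1ICD-EGFP and 42.9% of control cells under 10 CPM, in 53.8% and 18.6% between 10 and 100 CPM, in 75% and 37.9% between 100 and 1000 CPM, and in 90.7% and 96.04% at 10000 CPM or more. Of the 79 control cells under 1000 CPM, 61 were hormone-receptor-read, against 7 cells in the N1ICD-EGFP plate.

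**Figure D4:**
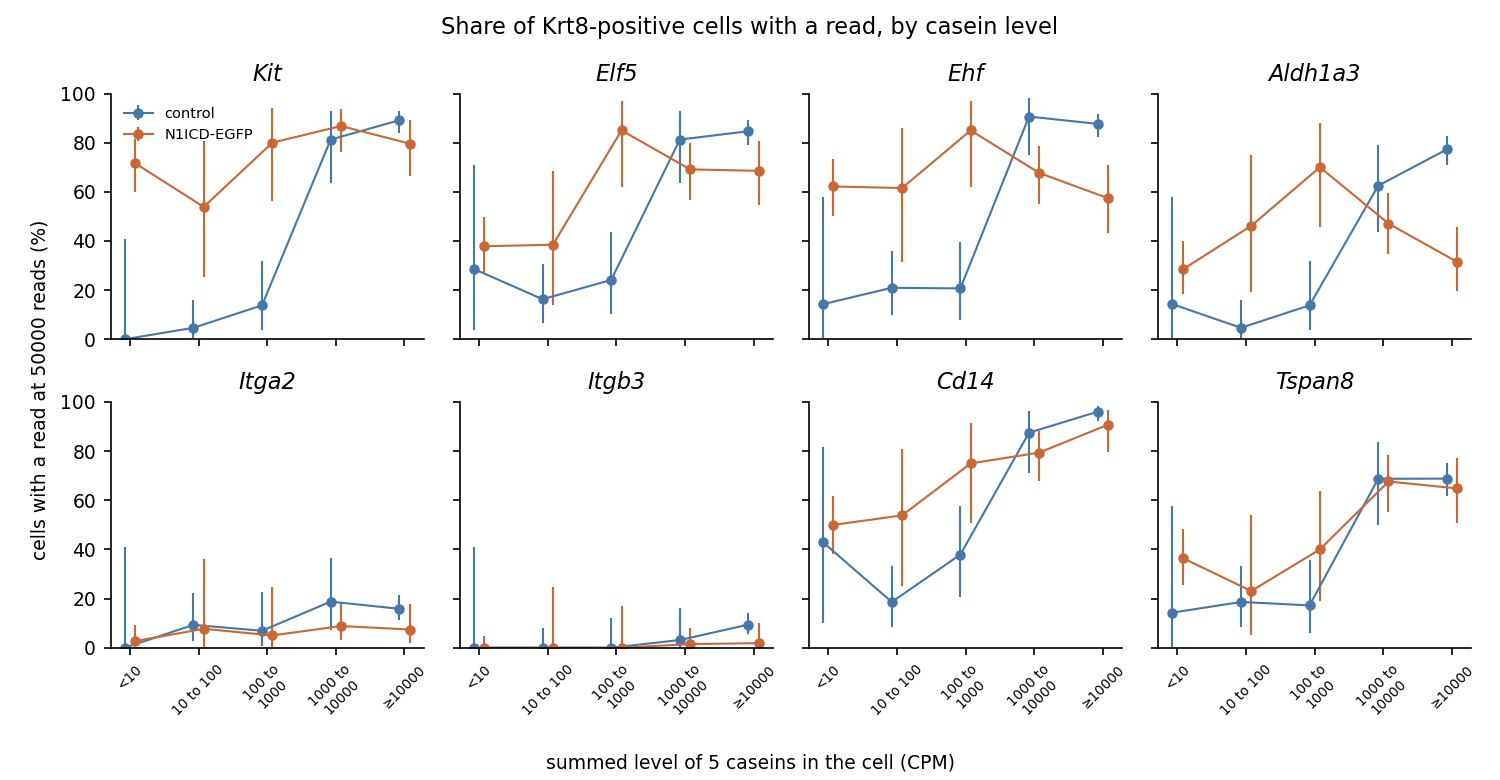
Percent of Krt8-positive cells with a read of each gene, after thinning, in 5 ranges of the summed casein level, with 95% counting intervals. Kit, Ehf, Elf5, Aldh1a3, Cd14 and Tspan8 step up at 1000 CPM in the control plate, and Kit shares in the N1ICD-EGFP plate are above 50% in every range.

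Further comparisons between plates, also added after the values had been seen, were made within these classes. Among casein-high cells none of the 8 genes was called higher (background 21.8%) and 4 were called lower (background 20.9%). Ehf was at 928 CPM in control and 473 CPM in N1ICD-EGFP cells (log2 ratio -0.97), Aldh1a3 at 979 and 387 CPM (-1.34), Itga2 at 41.9 and 8.43 CPM (-2.18) and Itgb3 at 21.3 and 2.16 CPM (-2.82). Kit was at 719 and 833 CPM (0.21), within 1.5 times. Among casein-low cells without hormone-receptor reads, Kit was at 65.4 CPM in 18 control cells and 753 CPM in 100 N1ICD-EGFP cells, a log2 ratio of 3.51. There 5 of 6 genes were called higher and none lower, but the background was 38.8% and 32.8%, and the control side is the mixed set of 18 cells described above. Tspan8, at 292.6 and 280.2 CPM, was the gene not called.

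The median Krt8-positive cell had reads of 5 of them in the control plate and of 4 with N1ICD-EGFP. At least 4 were read in 70.3% of control cells and 55.5% of N1ICD-EGFP cells, whereas none was read in 34 control cells (10.9%) and 6 N1ICD-EGFP cells (2.62%). No cell had all 8. Among hormone-receptor-read control cells the median was 1 gene, and 27 of the 34 control cells with none belonged to this class. Once hormone-receptor-read cells were left out, the control plate had at least 4 genes read in 86.3% of its cells. For the N1ICD-EGFP plate this share was 57.3%. Cells with none then numbered 7 in the control plate (3.0%) and 3 with N1ICD-EGFP (1.36%). At least 4 genes were read in 2 of the 15 leukocyte-gated control cells (13.3%) and in none of the 42 in the N1ICD-EGFP plate.

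**Figure D5:**
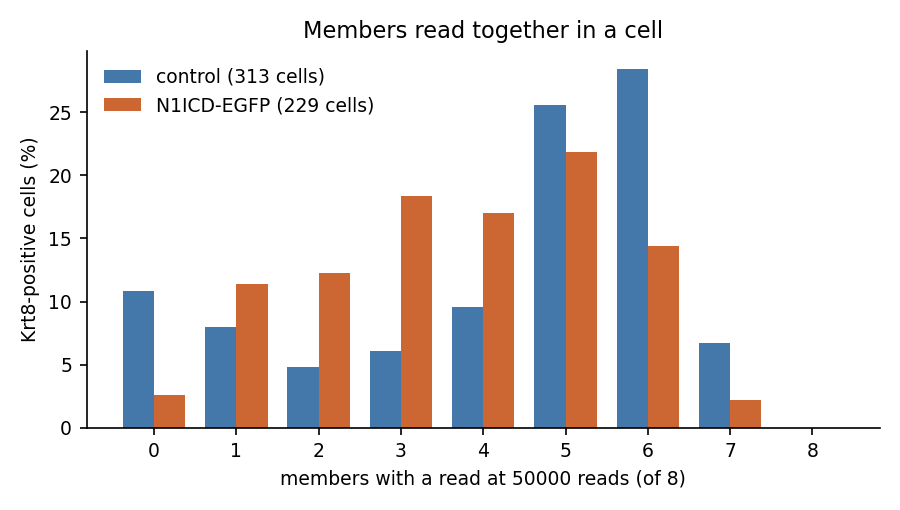
Percent of Krt8-positive cells by how many of the 8 genes had a read after thinning. Control cells gather at 0 to 1 and at 5 to 6 genes, and N1ICD-EGFP cells spread around 3 to 5. Hormone-receptor-read cells made up 27 of the 34 control cells at 0 genes and 20 of the 25 at 1 gene.

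Of control cells with a Kit read, 85.8% also had Elf5, 88.7% Ehf, 77.8% Aldh1a3 and 94.8% Cd14. In the N1ICD-EGFP plate the shares were 65.7%, 71.9%, 43.3% and 76.97%. Of cells without a Kit read, 30.7%, 33.7%, 17.8% and 42.6% had these genes in the control plate. The N1ICD-EGFP shares were 33.3%, 39.2%, 25.5% and 49.02%. When hormone-receptor-read cells were left out, the shares without a Kit read rose to 43.6%, 51.3%, 33.3% and 71.8% in control cells. In N1ICD-EGFP cells they rose to 39.5%, 44.2%, 27.9% and 55.8%. Across cells, Spearman coefficients of Kit with Ehf were 0.43 over control cells and 0.27 over N1ICD-EGFP cells, and of Kit with Cd14 0.48 and 0.10. Elf5 with Ehf gave 0.43 and 0.24. Without hormone-receptor-read cells, Kit with Ehf gave 0.14 in control and 0.23 in N1ICD-EGFP cells, the reverse order, Elf5 with Ehf gave 0.22 and 0.20, and Kit with Cd14 gave 0.18 and 0.046. The cells of each coefficient share a plate and the thinned depth.

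In the N1ICD-EGFP plate, eGFP reads were found in 91 Krt8-positive cells (39.7%). The control plate, which carries no EGFP, had 1 to 2 eGFP reads in 55 Krt8-positive cells (17.6%), so single reads also occur as background. At least 3 reads were found in 84 N1ICD-EGFP cells and in 0 control cells. The 7 remaining eGFP-read cells had 1 or 2 reads, and the eGFP-unread cells had none.

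Ehf was the gene called higher in eGFP-read cells, at 729 CPM (720 to 738) against 387 CPM (380.7 to 392) in eGFP-unread cells, a log2 ratio of 0.91. It was 1 of 7 genes tested, with a background of 18.1% of 11508 names, and none was called lower, with 25.6%. Ehf was read in 86.8% (78.1 to 92.9965) of the 91 eGFP-read and 50% (41.4 to 58.6) of the eGFP-unread cells. Within casein classes, a division made after the values had been seen, Ehf stood at 587 against 375.3 CPM in casein-high cells and 907 against 400 CPM in casein-low cells. Kit was at 868 and 688 CPM (0.34) and read in 91.2% and 68.8% of cells. Elf5 was at 160.5 and 142.6 CPM (0.17), Aldh1a3 at 363.7 and 324.6 CPM (0.16), Cd14 at 755 and 746 CPM (0.02) and Tspan8 at 336.3 and 348.7 CPM (-0.05). Itgb3 had no read in eGFP-read cells and 95 reads in the others.

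Depth, the number of genes and markers of other cell types moved with the eGFP division. The median depth was 414886 reads in eGFP-read and 316372 in eGFP-unread cells, and at 50000 reads the median was 2604 and 1962.5 genes. Summed macrophage markers were 10.8 CPM in eGFP-read and 895.7 CPM in eGFP-unread cells, leukocyte markers 34.3 and 455 CPM, lymphocyte markers 5.16 and 187.1 CPM, and hormone-sensing markers 42.4 and 412.6 CPM. All 7 macrophage, 6 leukocyte and 6 lymphocyte markers had reads in both sets, and Foxa1 had none in eGFP-read cells. In the control plate, cells with stray eGFP reads also had more Ehf (759 against 615 CPM) and Kit (553 against 477 CPM). The part of depth, cell quality and such cells in the N1ICD-EGFP difference was not tested.

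Genes whose reads ranked most like those of each gene were sought among 4270 names read in at least 20% of Krt8-positive cells of each plate, by the lower of the 2 plates' Spearman coefficients. For Kit these were Fcgbp (0.61 over control and 0.32 over N1ICD-EGFP cells), Rhoj and Eef1a1, and for Aldh1a3 Slc28a3, Fcgbp and Dbndd2. Elf5 was most like Mfge8 (0.39 and 0.35), Tcf7l2 and Txnip, and Ehf most like Eef1a1, Bbox1 and Anxa2. Cd14 was most like the transferrin gene Trf (0.63 and 0.56), the casein gene Csn3 (0.62 and 0.50) and the lipid droplet gene Plin2 (0.50 and 0.49). Tspan8 was most like Trf (0.36 and 0.42), Anpep and Mfge8. For Itga2 and Itgb3, read in under 20% of cells, the highest lower coefficients were 0.17 with Tsc22d3 and 0.15 with Rad21, too weak in such sparse counts to describe.

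Other genes of the same pathways are given for Krt8-positive cells, where the background was 20.9% called higher and 19.8% lower. All 4 casein genes at 5 CPM or more were called lower, with Csn1s2a at 978 and 188.3 CPM. Of 9 other luminal progenitor genes, 4 were called higher and 1 lower: the transcription factor Foxc1 was at 22.96 and 127.96 CPM, Gabrp at 78.7 and 213.9 CPM and Fcgbp at 2563 and 5121 CPM, while lactoferrin (Ltf) was at 9338 and 1918 CPM. Of 14 genes of Kit signalling, 2 were called higher and 2 lower, among them the ligand Kitl at 173.2 and 102.9 CPM. Of 19 other Ets genes, 5 were called higher and 6 lower, with Ets2 at 376.6 and 225.3 CPM and Elk4 at 23.3 and 2.48 CPM.

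The Elf5 axis is a list of prolactin receptor signalling genes together with Tnfrsf11a, Tnfsf11 and Gata3. It had 0 of 8 genes higher and 5 lower, with Jak2 at 100.03 and 42.2 CPM and Socs2 at 95.2 and 46.5 CPM. Prlr, in that list at 2773 and 214.8 CPM, is also a gene by which hormone-receptor-read cells were marked. Of 11 other integrins 1 was called higher and 6 lower, including Itgb6 at 54.2 and 9.77 CPM, Itgav at 126.2 and 40.7 CPM and Itga3 at 84.7 and 52.8 CPM. In the list around Cd14 and the lipopolysaccharide receptor, 3 of 12 were called higher and 2 lower, with Nfkbia at 443 and 999 CPM, Myd88 at 65.4 and 112.6 CPM and Tirap at 64.4 and 41.03 CPM. Of 9 retinoic acid genes 6 were called higher and none lower, among them Rara at 20.8 and 35.99 CPM. Of 17 other tetraspanins 1 was called higher, Tspan12 at 51.9 and 120.4 CPM, and 5 lower, with Tspan1 at 361.2 and 55.2 CPM and Tspan13 at 295.2 and 67.1 CPM.

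Several of these counts differed when hormone-receptor-read cells were left out, with a background of 21.6% called higher and 19% lower. The other luminal progenitor genes then had 3 called higher and 4 lower of 9, and their median log2 ratio was -0.04 in place of 0.38. The other Ets genes had 4 higher and 3 lower of 18, the retinoic acid genes 4 higher and none lower of 9, and the other tetraspanins 2 higher and 3 lower of 16. Kit signalling had 3 higher and 2 lower of 14, and the lipopolysaccharide receptor list 3 higher and 1 lower of 12. The caseins, the Elf5 axis and the other integrins gave the counts above. Among the genes named above, Elk4, Ets2, Itgb6, Tirap, Tspan1 and Tspan13 were then either not called or read in under 20% of cells of the plate where they were higher. Foxc1, Gabrp, Fcgbp, Ltf, Kitl, Jak2, Itgav, Itga3, Nfkbia, Myd88, Rara and Tspan12 kept their call and direction.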

How the data were processed

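The authors deposited whole-number read counts for each gene in each well of the Smart-Seq2 plates. The submitters' processing notes name STAR and mm10, with no version, and the sources used here do not say which counter or annotation was used or whether strand was. Rows of a repeated name were added up (492 of 24490 rows), and eGFP was set apart, which left 23997 names. Cells under 50000 reads or 1000 genes were left out. Counts were summed over cells and divided by the summed total (CPM); log2 ratios use a pseudocount of 1 CPM, and folds are plain ratios. Where a summed count was 0, the fold is a bound from 3 counts over that set of cells. Shares use cells thinned to 50000 reads without replacement.

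Sums carry exact Poisson and shares Clopper-Pearson 95% intervals, for counting error only. With 1 plate per genotype, no test, p-value or standard error was computed, and no doublet caller was run on these sorted wells. As an alternative, cells whose number of genes was over the plate median by 3 median absolute deviations were left out as possible doublets. The genes and lists were chosen with earlier results of these data known. Named list genes are up to 3 per list and direction past 1.5 times in Krt8-positive cells with reads in 20% or more of cells in the plate where the gene is higher; 2 listed genes were not found by name. Of the genes this rule names, 1 is not reported here. The ratio procedure was tested on simulated data. Python 3.11.15, numpy 2.4.6, pandas 2.3.3 and scipy 1.17.1 were used. Sequences and positions are from RefSeq tables of GRCm38.p6, the assembly behind mm10.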

Additional observations from a re-analysis of the deposited data

Results flagged for a closer look

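The log2 ratio of Ehf between casein classes had opposite signs in the plates. Its log2 ratio of casein-high over casein-low Krt8-positive cells was 4.48 in the control plate and -0.41 in the N1ICD-EGFP plate. The difference was not tested, since each genotype is 1 plate. With the division set at 100 CPM of casein, the N1ICD-EGFP value was 0.13.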

How the results depend on the processing

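No paired analysis was possible because each genotype is 1 plate and well numbers only name cells. For the same reason no replicate could be left out. The 1 gene called higher in Krt8-positive cells, Kit, was 0 without possible doublets, with the mean of per-cell CPM, with thinning before summing, in well columns 13 to 24, without hormone-receptor-read cells and at 2 times in place of 1.5, and its log2 ratio in the first 5 of these was 0.22 to 0.47. The 2 genes called lower over all kept cells became 4 without possible doublets and in well columns 13 to 24. In eGFP-read cells the 1 gene called higher became 0 at 2 times and 2 in well columns 1 to 12, and the count lower went from 0 to 1 without possible doublets, with thinning, with no filter on low values and in well columns 13 to 24. In casein-high N1ICD-EGFP cells the 4 genes called higher became 2 with thinning and at 2 times, and the count lower went from 0 to 1 with the mean of per-cell CPM, thinning and well columns 13 to 24. With a casein limit of 10000 CPM the log2 ratio there turned to -0.13 for Itga2, -0.28 for Kit and -0.40 for Aldh1a3. With casein-high defined by a Csn2 read it turned to -0.0068 for Kit, -0.25 for Aldh1a3 and -1.57 for Itgb3, and with a limit of 100 CPM to 0.13 for Ehf. In the control plate all 8 genes kept their direction under the 17 alternatives run there, with the lowest Kit log2 ratio at 1.27. The causes were not tested. Among 2 alternatives added after seeing the data, casein-high cells gave 0 genes higher, where 21.8% of all names tested were. Casein-low cells without hormone-receptor reads gave 5 higher and 0 lower, where 38.8% and 32.8% of names were. The log2 ratio of Aldh1a3 there was 4.44. Those of Itga2 (0.11) and Itgb3 (0.043, from 0 and 1 reads) come from levels under 5 CPM in both plates, so neither gene was tested. The other recomputed counts each stayed within 1.5 times of its first value.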
